A study of Mus musculus with 16 samples.

Results

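The interferon response genes described here were 39 listed genes known to be induced by interferon, all of them found by name among 52542 gene entries other than spike-ins. Their counts were read in 16 libraries of single LSK cells, the Lin- Sca-1+ Kit+ fraction of mouse bone marrow, in which blood stem cells and their earliest progeny are found. All libraries came from C57BL/6J mice, irradiated CD45.1/CD45.2 hosts that had been given control CD45.1 fetal liver cells together with Regnase-1-/- Regnase-3-/- CD45.2 fetal liver cells, and the cells were sorted at week 4. Regnase-1 and Regnase-3 are RNases that degrade messenger RNAs of inflammatory genes. All 16 libraries share 1 group in the labels, which name neither a genotype nor a mouse for a library or a well, so donor genotypes could not be compared. Libraries may share mice, and the p-values below measure only the spread between libraries, which may be technical.

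Interferons are secreted proteins that bind receptors on the cell surface and activate the JAK kinases and transcription factors such as STAT2 and IRF9. These factors bind 2 DNA motifs, the interferon-stimulated response element (ISRE) and the gamma-activated site (GAS), and switch on genes that restrict viruses and intracellular bacteria. In bone marrow, interferon is known to bring stem cells into division and to raise Sca-1, the product of Ly6a and one of the antigens by which LSK cells are sorted. Many interferon response genes are also transcribed at a low level without infection.

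A well was used as a cell when it held at least 500 unique molecular identifiers (UMIs, one per captured transcript), had under 20% mitochondrial UMIs and was not listed as empty. This kept 5157 cells, 295 to 345 per library, with 500092 to 810096 UMIs per library and a median of 1146 to 1993 UMIs per cell. Levels are given as CPM, UMIs per 1000000 UMIs of the same library or of the same cells of a library, and come from transcript 3′ ends, so they are not divided by gene length. Ly6a and Kit, which encode the sorted antigens, together held 301 to 463 CPM in every library. No well name was shared between libraries. The 60 wells listed as empty held 7 UMIs of the 39 genes, 0.117 per well against 6.98 per kept cell. Marker lists for cells outside the sort were not empty. The T and NK cell list had UMIs of 3 of 5 genes (1558 UMIs, Cd3e and Cd3d at 0), the mature B cell list of 4 of 5 (434, Cd79a at 0), the erythroid and platelet list of 5 of 6 (1801, Alas2 at 0) and the endothelial and stromal list of 4 of 6 (674, Cdh5 and Lepr at 0).

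Promoters are shown because the motif lay both in genes found in few cells and in Ifi203, which had a UMI in 30.5% of cells. Entries were found in RefSeq (GRCm38.p6) for 30 of the 39 genes, as windows of 300 bases of which 250 lie before the start site. The ISRE was searched on both strands as GAAA followed, after 2 bases of any kind, by GAAA, and at least 1 match lay in a window of 18 of the 30 genes, against 3.99% of 27025 genes. The GAS was searched as TTCNNNGAA, which reads the same on both strands, and matched in 9 of the 30 genes against 9.55% of all genes. Both motifs were found in 5 genes (Bst2, Eif2ak2, Gbp7, Igtp and Irgm2), and the 2 motifs shared bases only in Bst2. Among the genes with an ISRE were Ifit1, Ifit3, Rsad2 and Isg15, which held their UMIs in few cells (values below). They were the only matches among the core genes (defined below). An ISRE lay in 4 of the 9 core genes with an entry, against 14 of the 21 other genes with an entry. The motif was thus not more frequent in the core genes. Neither motif lay in the windows of Irf7, Ifi47, Xaf1, Oasl2, Ifi44, Irf9, Slfn2 and Trim25. Dhx58, Ifi27, Ifi27l2a, Iigp1, Ly6e, Parp14, Rtp4, Usp18 and Zbp1 had no entry. The 160 bases before the start site follow for 6 genes, 5′ to 3′ along the gene, with each ISRE match, on either strand, in capitals; for Ifi203 a second start site had no match, and overlapping matches run together in Isg15 and Bst2.
Ifit1 (chr19:34640729-34640888, plus strand): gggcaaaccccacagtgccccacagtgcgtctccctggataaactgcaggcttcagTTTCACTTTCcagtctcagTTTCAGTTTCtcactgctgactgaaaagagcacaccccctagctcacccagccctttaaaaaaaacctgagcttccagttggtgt
Ifit3 (chr19:34583369-34583528, plus strand): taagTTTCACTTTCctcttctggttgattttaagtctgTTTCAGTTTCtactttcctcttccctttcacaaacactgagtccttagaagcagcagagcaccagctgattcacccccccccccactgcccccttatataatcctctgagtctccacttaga
Rsad2 (chr12:26456453-26456612, minus strand): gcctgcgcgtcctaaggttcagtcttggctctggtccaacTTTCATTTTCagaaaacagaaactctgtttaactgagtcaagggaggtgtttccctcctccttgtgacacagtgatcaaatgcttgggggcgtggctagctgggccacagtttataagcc
Isg15 (chr4:156200819-156200978, minus strand): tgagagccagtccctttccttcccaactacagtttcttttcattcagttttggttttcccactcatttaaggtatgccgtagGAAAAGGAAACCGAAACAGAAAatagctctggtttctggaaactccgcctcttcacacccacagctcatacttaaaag
Bst2 (chr8:71537473-71537632, minus strand): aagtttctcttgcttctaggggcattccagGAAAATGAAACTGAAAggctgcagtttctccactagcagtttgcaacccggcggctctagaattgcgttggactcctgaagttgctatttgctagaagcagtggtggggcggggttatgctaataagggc
Ifi203 (chr1:173942493-173942652, minus strand): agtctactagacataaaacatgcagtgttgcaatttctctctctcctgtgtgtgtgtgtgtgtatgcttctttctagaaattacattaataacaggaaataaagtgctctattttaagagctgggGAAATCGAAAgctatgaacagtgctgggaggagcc

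Together the 39 genes were at 3173 to 3820 CPM, with a median of 3396 over the 16 libraries. The total rested on few genes: Ly6e alone held 32.0% of the 36021 UMIs, and Ly6e, Ifi203 and Ifi27 together held 45.0%. At least 1 UMI of any of the genes was found in 4911 cells (95.2%), and of any gene other than these 3 in 4453 cells (86.3%). UMIs were found in every library for 37 of the 39 genes. Ifit3 was found in 7 libraries and Slfn2 in 13.

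**Figure D1:**
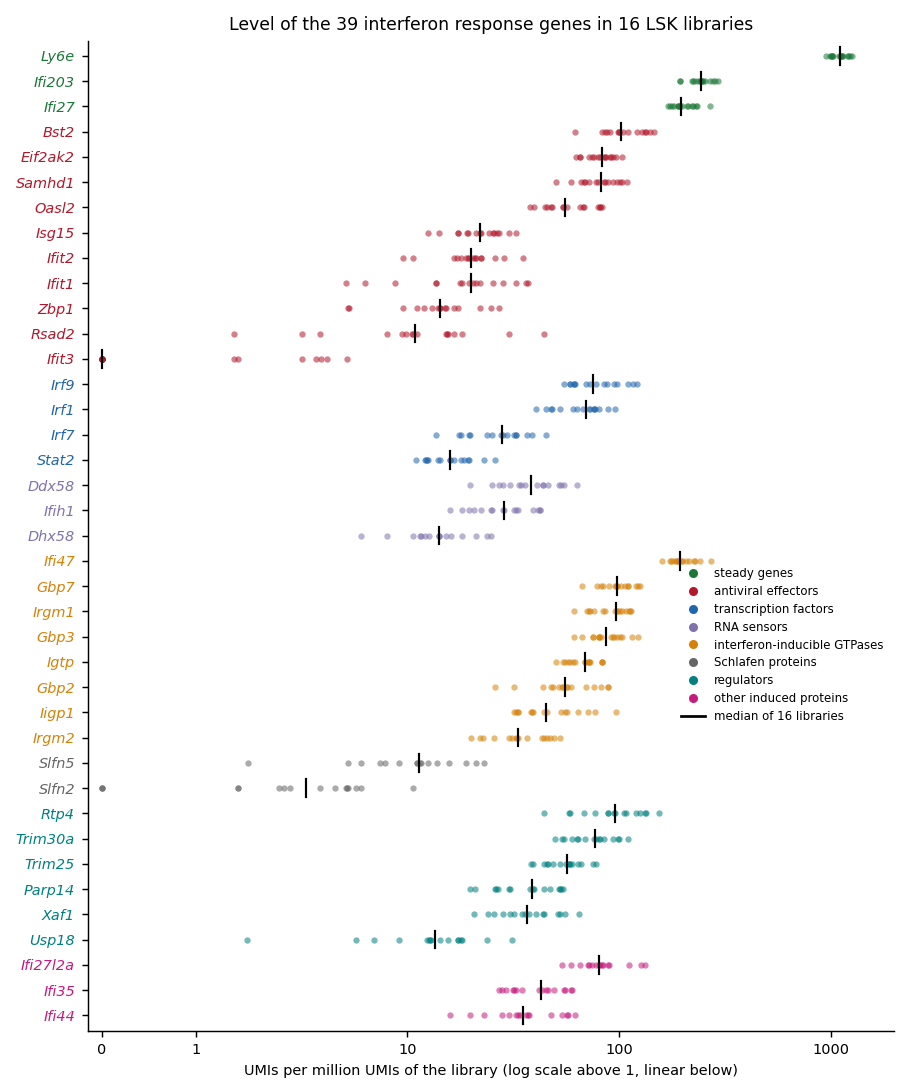
CPM of each of the 39 genes (rows, grouped by role) in each of the 16 libraries (points), with the median as a black bar. Ly6e lies between 948 and 1265 in all libraries, while Rsad2, Slfn5 and Usp18 spread over more than a factor of 10 and Ifit3 and Slfn2 reach 0.

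The 3 genes called steady here were found in every library, with the highest library 1.33 to 1.58 times the lowest. Their spread over libraries was still larger than counting gives: the chi-square per degree of freedom was 5.01 for Ly6e, 2.41 for Ifi27 and 2.14 for Ifi203, against a median of 1.86 over genes with at least 100 UMIs. Ly6e encodes a membrane-anchored protein of the Ly6 family that restricts coronaviruses. It lies on chromosome 15 at 74955051 to 74959905 (plus strand, GENCODE vM21 on GRCm38), near Ly6a on the same chromosome. Its lowest, median and highest library levels were 948, 1112 and 1265 CPM, and it had a UMI in 71.4% of cells. The low end was LSK library 2 and the high end LSK library 15. Ifi203, a DNA-binding protein of the interferon-inducible p200 family, was at 195, 244 and 294 CPM, in 30.5% of cells. Its annotated gene overlaps Mndal on the same strand, another p200 gene with 2454 UMIs against 2544 for Ifi203, so the split of counts between these 2 genes is uncertain. Ifi27, a small membrane protein of mitochondria and the nuclear envelope, was at 171, 196 and 270 CPM, in 26.4% of cells. The GTPase gene Ifi47 was found in a like share of cells with a wider range, at 159, 193 and 272 CPM in 26.7% of cells.

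Sequencing batch moved with the level of some genes. The well table places LSK libraries 2 to 10 in batch SB341 and 11 to 16 in SB343, and gives none for library 1. Ly6e ran from 948 to 1142 (median 1014) in SB341 and from 1097 to 1265 (median 1210) in SB343. Rtp4, a chaperone for cell surface receptors, went the other way, from 77.1 to 133 (median 108) in SB341 and from 44.4 to 95.4 (median 63.3) in SB343. The ranges of the 2 batches overlapped for all 39 genes, 17 of which had the higher median in SB343. Batch, mouse and the mixture of donor cells cannot be told apart here.

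The antiviral effectors ranged from moderately to rarely detected. Bst2 (tetherin), which holds budding virus particles at the cell surface, had lowest, median and highest levels of 62.0, 102 and 147 CPM. Eif2ak2 (PKR), a kinase that stops translation on binding double-stranded RNA, was at 62.5, 82.7 and 103. Samhd1, which depletes nucleotides needed for viral DNA synthesis, was at 50.6, 82.0 and 110. The low ends of these genes were libraries 2, 11 and 16, so no single library was low throughout. The IFIT proteins bind viral RNA that lacks host cap marks. Ifit1 was at 5.10, 19.96 and 37.2 CPM and had a UMI in 130 cells. Ifit2 was at 9.48, 19.97 and 35.1. Ifit3 had 16 UMIs in all, in 12 cells, and counts may be split with its close copy Ifit3b, which had 7. Isg15, a ubiquitin-like protein attached to new proteins, was at 12.5, 22.1 and 32.6 CPM. Rsad2 (viperin), which makes a chain-terminating nucleotide, was at 1.51, 10.9 and 44.3, and its 148 UMIs lay in 97 cells. Oasl2 (55.5) and Zbp1 (14.2), a sensor of left-handed nucleic acid, are given as medians.

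Genes of the transcription factors and RNA sensors spanned a wide range. Among transcription factors, Irf9 (75.3) and Irf1 (69.6) had higher medians than Irf7 (28.1) and Stat2 (15.8 CPM). The RNA sensors Ddx58 (RIG-I), Ifih1 (MDA5) and Dhx58 (LGP2) had medians of 38.6, 28.5 and 14.1. The 8 GTPases, of families with members that attack the membranes of vacuoles around pathogens, held 20.1% of all UMIs of the 39 genes. After Ifi47 came Gbp7 (66.7, 97.6 and 125 CPM), Irgm1 (61.1, 96.3 and 114) and Gbp3 (61.0, 87.2 and 122). Igtp, Gbp2, Iigp1 and Irgm2 had medians of 69.3, 55.5, 45.1 and 33.1, and Igtp and Irgm2 overlap on the same strand, so their split is uncertain. The growth regulators Slfn5 and Slfn2 had medians of 11.3 and 3.32. Among regulators, Rtp4 ran over 44.4, 95.2 and 154 CPM, while Trim30a, Trim25, Parp14, Xaf1 and Usp18, the enzyme that removes ISG15, had medians of 77.0, 57.0, 38.6, 36.6 and 13.5. Ifi27l2a, a small mitochondrial membrane protein encoded beside Ifi27 on chromosome 12 (103442167 to 103443680, minus strand), was at 53.7, 80.8 and 133. Ifi35 and Ifi44 had medians of 42.7 and 35.1.

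The rest of the pathway was taken from lists of 92 other genes. None of the 8 interferon genes searched, Ifnb1, Ifng and 3 alpha genes among them, had a UMI in any kept cell, which allows up to 0.287 CPM for each. Of 6 receptor genes, 5 were found: Ifnar2 had 507 UMIs, Ifngr1 493, Il10rb 455, Ifngr2 293 and Ifnar1 176, while Ifnlr1, the lambda receptor, had 0. All 12 signalling genes were found, led by Jak1 (1589 UMIs) and Ptpn6 (1587). Of 58 other induced genes, all had at least 1 UMI, and the immunoproteasome subunit Psmb8 had the most (5145).

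How far each gene was concentrated in few cells was measured as the number of cells with a UMI over the number that Poisson counting gives if the gene held its library's share of UMIs in every cell. A ratio of 1 is an even spread, and most genes fall below it: the median was 0.874 over 9316 genes with at least 100 UMIs. The 39 genes had a median of 0.820 and ranged from 0.643 to 0.926. Within single libraries their median was 0.775 to 0.845 in batch SB341 and 0.758 in library 1. In SB343 it was 0.881 to 0.959, so the ranges of the batches did not overlap, and the cause was not tested. Medians by library are not given for all genes, so this has no background and is not read as a trait of the 39 genes. For 33 of the 39 genes the pooled ratio was below the median of genes within a factor of 2 of their UMI count. Of the 39, 19 lay in the lowest 10% of such genes. Among those with at least 100 UMIs Ifit1 was the most concentrated, at 0.643, with 130 cells where 202 were computed, and 0.177% of genes of like abundance were lower. Rsad2 (0.679), Iigp1 (0.714), Ifi27l2a (0.744), Irf7 (0.751) and Gbp3 (0.756) followed.

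The steady genes were less concentrated than these. Ly6e had a ratio of 0.905, Ifi203 of 0.861 and Ifi27 of 0.848. Measured against genes of like abundance they were not unusually even: 15.98% of such genes lay below Ly6e, 29.5% below Ifi203 and 21.3% below Ifi27. Dhx58 (0.926), Samhd1 (0.906), Usp18 (0.894) and Trim25 (0.893) were spread as evenly as Ly6e or nearly so, so not every gene of low level was concentrated.

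**Figure D2:**
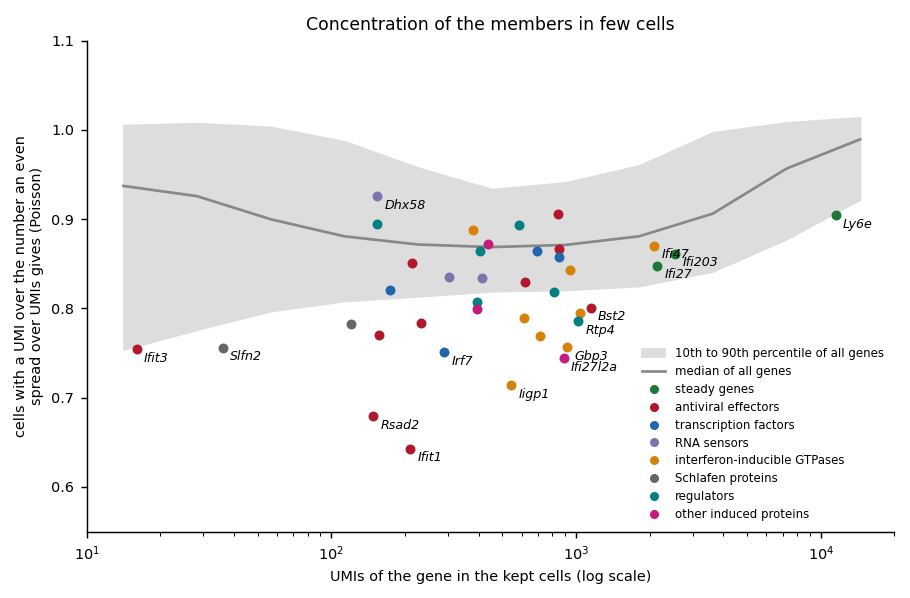
Cells with a UMI over the Poisson number (y axis) against the gene's UMIs in the kept cells (x axis, log scale), for the 39 genes coloured by role, with the median (line) and the 10th to 90th percentile (band) of all genes in bins of abundance. Ifit1, Rsad2 and Iigp1 lie furthest below the band, and the 3 steady genes at 0.848 to 0.905 lie near or inside it.

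A single cell held much of the Rsad2 signal. It was in LSK library 1, had 5047 UMIs and passed the neutrophil granule gate described below. It held 206 UMIs from 33 of the 39 genes, among them 26 of Rsad2, 13 of Ifit1, 12 of Iigp1, 12 of Ifi203 and 22 of Ly6e. Without it the Rsad2 ratio was 0.806 and the Ifit1 ratio 0.678, and the level in library 1 went from 44.3 to 10.5 CPM for Rsad2 and from 32.6 to 15.7 for Ifit1. Library 1 was then no longer the high end for Rsad2. Leaving this cell out, here and below, was chosen after seeing the data.

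Co-detection was counted for 12 of the genes with known strong induction, called core genes here: Ifit1, Ifit2, Ifit3, Rsad2, Isg15, Irf7, Oasl2, Usp18, Rtp4, Ifi44, Xaf1 and Zbp1. Of the 5157 cells, 3203 had a UMI of none of them, 1353 of 1, 432 of 2, 109 of 3 and 29 of 4. If the genes were found independently, given each gene's own number of cells and each cell's depth, 3108, 1461, 441, 113 and 26.5 cells would be computed. Up to 4 core genes these numbers were close to those observed. At least 5 core genes were found in 31 cells where 6.90 were computed. With each gene instead at its library's share of UMIs in every cell, 17.5 cells were computed at 5 or more and 68.4 at 4 or more, where 60 were observed, and 4.07 at 6 or more, where 5 were observed. That second number computes more cells with at least 1 core gene (2396) than the 1954 observed. The excess thus depended on how detection was computed, and no test was made of it. The 31 cells were 0.601% of all cells (95% Wilson interval 0.424% to 0.852%, counting error only) and lay in 15 of the 16 libraries, with 7 in library 3 and none in library 2. The limit of 5 was chosen after seeing this distribution.

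**Figure D3:**
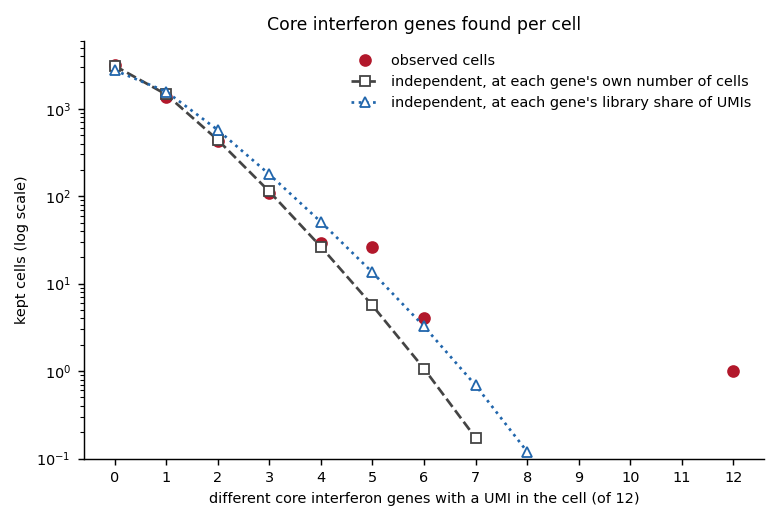
Number of kept cells (y axis, log scale) by the number of the 12 core genes with a UMI in the cell (x axis). Filled points are observed cells, open squares the numbers computed from each gene's own number of cells, and open triangles those from its library share of UMIs. At 5 genes 26 cells were observed, with 5.63 and 13.5 computed.

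The 31 cells were deep, with a median of 3559 UMIs and a range of 886 to 15032, against 1541.5 in cells with under 3 core genes. They held 7 to 206 UMIs of the 39 genes, with a median of 31. By gate, 5 were granule-gated, 5 lymphoid-gated, 2 stem-gated and 1 megakaryocyte and erythroid-gated, 12 passed no gate and 6 passed several. Doublets were not called, and their part and that of depth was not tested. The 27 genes outside the core did not choose these cells: 24 were higher in CPM there, with a median ratio of 2.03. No share over all genes stands beside this count, so it has no background and is not read as a result. Slfn5 was 7.55 times as high (11 of its 120 UMIs), Iigp1 5.16 times, Stat2 5.08 times and Parp14 4.20 times. Iigp1, Stat2 and Parp14 had only 35, 11 and 21 UMIs in the 31 cells. The steady genes Ly6e (1.13), Ifi27 (1.46) and Ifi203 (1.90) had smaller ratios. Without the single rich cell of library 1, 23 of the 27 were higher, with a median of 1.60 and with Iigp1 at 3.52.

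Each core gene was also compared in cells chosen by the others. Cells with a UMI of at least 3 core genes other than the one described numbered 103 to 169. All 12 core genes were higher in CPM in the cells so chosen than in the rest, by 2.16 to 16.9 times (median 3.46). Ifit3 had 8 of its 16 UMIs there, a ratio of 16.9. Ifit1 was at 117 against 14.8 CPM, 7.90 times as high and higher in 11 of 16 libraries. Rsad2 was at 82.4 against 10.6, in 8 of 16 libraries, and without the single rich cell of library 1 at 32.9 against 10.6, a ratio of 3.11 in place of 7.78. Without that cell Ifit3 was at 10.6 times, and the core genes ran from 1.79 to 10.6 times (median 3.11). Irf7 was at 111 against 23.2 (14 of 16), Isg15 at 70.9 against 19.8 (13 of 16) and Rtp4 at 293 against 90.5 (15 of 16). Of the other 27 genes, 26 were higher, with a median ratio of 1.45. No share over all genes stands beside the counts of 12 and 26, so they have no background and are not read as results. The highest of the 27 was Slfn5 at 5.60, then Iigp1 (2.78), Igtp (2.34) and Gbp7 (2.20). Ly6e was at 1264 against 1096 CPM, a ratio of 1.15, and was higher in 8 of 16 libraries. Ifi203 was at 406 against 234, a ratio of 1.73, in 14 of 16 libraries. Slfn2, with 2 UMIs in these cells, was at 0.988.

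**Figure D4:**
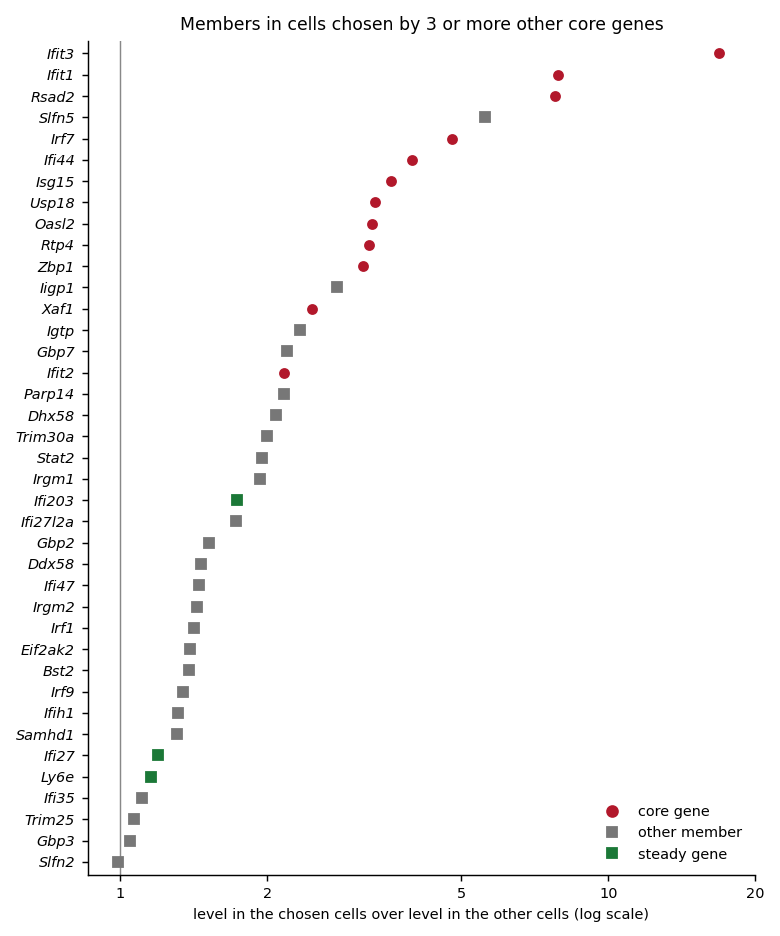
Level in cells with a UMI of at least 3 other core genes over the level in the remaining cells (x axis, log scale) for each of the 39 genes (rows). Circles are the 12 core genes, squares the other 27, with the steady genes in green. All 12 core genes lie above 2, and Ly6e and Ifi27 lie close to 1.

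Core pairs restate the counts per cell above and add no separate evidence. The single rich cell of library 1 had all 12 core genes, so it counts in each of the 66 pairs. With each gene at its library's share of UMIs, 821 cells with at least 2 core genes were computed where 601 were observed. Both genes of a core pair were found in 1319 cells summed over 66 pairs, against 1017 computed from each gene's own number of cells, a ratio of 1.30, and 61 pairs were above 1. The ratio was 1.15 over the 28 pairs of GTPases and 1.02 over the 3 pairs of steady genes. Over all 659 pairs of the listed genes with at least 5 cells computed it was 1.01, and 372 of these pairs were above 1. Co-detection above the computed number was thus not a trait of the listed genes as a whole. Among the higher pairs, Slfn5, which is no core gene, and Ifi44 were found together in 23 cells where 7.31 were computed. Ifit1 and Rsad2 were found together in 11 where 4.34 were computed. These numbers allow for depth through the Poisson share of each cell, and cells of 1 library share its capture rate.

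Interferon-core cells, those with at least 3 core genes, numbered 169 (3.28%, 95% Wilson interval 2.82% to 3.80%), from 4 to 17 per library. This is a range of a count and not a cell type: 109 of the cells held exactly 3 core genes and 432 cells held 2. Their median depth was 2928 UMIs against 1541.5 in the others, and their summed markers of the megakaryocyte and erythroid list were at 394 against 216 CPM, of the lymphoid list at 952 against 793 and of the granule list at 843 against 1090. The part of depth and of these markers in the result was not tested. Counts were summed per library in the core cells and in the other cells and fitted with edgeR's quasi-likelihood test with the library as a block, leaving out the 39 genes. Of 4533 genes tested, 0.816% were called at a Benjamini-Hochberg adjusted p under 0.05, 0.0662% as higher and 0.75% as lower. The 34 lower genes included 8 mitochondrial genes, with mt-Nd4 (-0.50 ± 0.07, edgeR adjusted p = 1.41e-09) and mt-Nd1 (-0.45 ± 0.07) among them, 7 with ribosomal protein names such as Rps24 (-0.32 ± 0.07), and Apoe (-1.18 ± 0.24) and Mpo (-0.57 ± 0.13). Under RLE scaling 5 genes were lower, 4 of them mitochondrial, and the part of this in the result was not tested. Among the higher genes were Serpina3g, a protease inhibitor (log2 difference 0.67 ± 0.15, SE, edgeR adjusted p = 0.00344), and Gm4951 (1.37 ± 0.34, adjusted p = 0.0145). Of 36 pathway genes tested, 11 had an unadjusted p under 0.05. The share of all 4533 genes with such a p is not given, so this count has no background and is not read as a result. Among the 11 were Slfn8 (1.05 ± 0.33), Rnf213 (0.79 ± 0.25), Pml (0.77 ± 0.29) and Epsti1 (0.77 ± 0.25). None of the genes named here passed the adjusted threshold. The median of all genes was -0.15 on the log2 scale in this fit and 0.036 with the scaling of DESeq2 (RLE), under which Ly6a, Mndal, Ifitm3, Rnf213 and Epsti1 were among the genes called as higher.

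Lineage was read from the cells' own expression. A cell was gated when it had UMIs of at least 2 markers of 1 lineage and under 2 of every other: Procr, Hlf, Mecom and others for stem cells (227 cells), Mpo, Elane, Prtn3 and others for neutrophil granules (803), Dntt, Il7r, Ighm and others for lymphoid progenitors (655), and Pf4, Gp9, Gata1 and others for megakaryocytes and erythroid cells (127). The monocyte and dendritic gate held 5 cells and was not compared. Median depth was 2243 UMIs in granule-gated, 1932 in lymphoid-gated and 1694 in stem-gated cells. The 39 genes together were at 3897 CPM in lymphoid-gated, 3715 in stem-gated, 3327 in granule-gated and 2524 in megakaryocyte and erythroid-gated cells. Core cells made up 5.50% of lymphoid-gated cells (Wilson 4.00% to 7.52%), 4.85% of stem-gated (2.73% to 8.47%), 2.86% of granule-gated (1.92% to 4.26%) and 1.57% of megakaryocyte and erythroid-gated cells (0.433% to 5.56%). These intervals cover counting error only, and neighbours in this order overlap. The order changed with depth. At a UMI minimum above 1000, which kept 90 stem-gated, 309 lymphoid-gated and 468 granule-gated cells, the shares were 8.89%, 7.12% and 4.06%. Cells that passed several gates, with a median of 3668 UMIs, had the highest share without that minimum, 7.64%. The part of depth in these shares was not tested. The levels and shares here pool libraries in which the gates were not balanced: granule-gated cells numbered 284 in batch SB341 and 477 in SB343, lymphoid-gated cells 456 and 149.

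Granule-gated cells had less of 4 interferon genes than lymphoid-gated cells of the same libraries. In the edgeR fit over 16 libraries, 1490 genes that chose no gate had enough counts and 5.5% of them were called, 2.28% as higher and 3.22% as lower in granule-gated cells. Of the 39 genes 8 had enough counts, and 4 were called, all lower in granule-gated cells. Of these, Ifi27l2a and Rtp4 passed the count filter mainly through the lymphoid gate (below). Their calls, the count of 4 and the median over the 8 are therefore not read as tests. The median log2 difference was -0.60 over the 8 and -0.0014 over all genes tested. Genes that passed the count filter were the abundant ones, so these 8 do not stand for the 39: with a lower filter (below) the median was -0.32 over 37 of them.

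Ifi27l2a differed most. In granule-gated cells its lowest, median and highest library levels were 15.8, 53.5 and 139 CPM, and in lymphoid-gated cells 33.5, 173 and 297. It was lower in granule-gated cells in 15 of 16 libraries although the ranges overlapped, with a log2 difference of -1.54 ± 0.21 (SE, n = 16, edgeR adjusted p = 1.12e-07), or 2.92-fold. Its UMIs were 114 in granule-gated and 260 in lymphoid-gated cells, so that it passed the filter mainly through the gate where it was high. The p-value of Ifi27l2a is thus not read as a test. Rtp4, on chromosome 16 (23520291 to 23614222, plus strand), ran over 23.0, 69.3 and 148 CPM in granule-gated and 42.4, 157 and 241 in lymphoid-gated cells. It was lower in 14 of 16 libraries, by 1.00 ± 0.20 on the log2 scale (edgeR adjusted p = 0.000274). Its UMIs per library were 3 to 19 in granule-gated and 2 to 39 in lymphoid-gated cells. Rtp4 too thus passed the filter mainly through the gate where it was high, and its p-value is not read as a test either.

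Ifi203, with a narrow range over libraries, differed between lineages. It lies on chromosome 1 (173920407 to 173942672, minus strand). Its levels were 98.8, 210 and 324 CPM in granule-gated and 188, 374 and 460 in lymphoid-gated cells, lower in 15 of 16 libraries, with a log2 difference of -0.72 ± 0.12 (edgeR adjusted p = 2.66e-05). Its overlapping neighbour Mndal was lower too (-0.44 ± 0.13, adjusted p = 0.0336), but lost the call in 10 of the 16 fits without 1 library. Bst2, on chromosome 8 (71534255 to 71537456, minus strand), ran over 23.2, 101 and 174 CPM in granule-gated and 67.6, 160 and 336 in lymphoid-gated cells. It was lower in 13 of 16 libraries (-0.68 ± 0.19, adjusted p = 0.0199), and lost the call without LSK library 9, 11, 14 or 16, with adjusted p up to 0.0881.

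The 4 genes not called were Ifi47 (-0.45 ± 0.15, edgeR adjusted p = 0.0658), Irgm1 (-0.53 ± 0.21, adjusted p = 0.145), Ifi27 (-0.32 ± 0.14, adjusted p = 0.217) and Ly6e (0.027 ± 0.063, adjusted p = 0.919). Ly6e had medians of 1192 and 1203 CPM in granule-gated and lymphoid-gated cells and was lower in 9 of 16 libraries. Of 14 pathway genes tested, 2 were lower in granule-gated cells, Mndal and Ly6a (-1.18 ± 0.14, adjusted p = 2.32e-09, lower in 16 of 16 libraries). Another 2 were higher, the membrane fusion inhibitors Ifitm1 (0.54 ± 0.12, adjusted p = 0.00134) and Ifitm2 (0.45 ± 0.13, adjusted p = 0.0224), and Ifitm2 lost the call without any 1 of 6 libraries (2, 3, 6, 7, 14 and 15), with adjusted p up to 0.083. Ly6a encodes the sort antigen Sca-1, so the sort limits its range in all cells. In a lower filter chosen after seeing the data (at least 30 UMIs over all sums), 37 of the 39 genes and 9583 genes in all were tested and 1.35% were called. Ifi27l2a, Ifi203 and Rtp4 were called again, and Xaf1, a pro-apoptotic protein, was also lower (-1.20 ± 0.34, edgeR adjusted p = 0.0317). There 27 of the 37 genes were below 0 against 43.0% of all genes, whose median was 0.058.

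Other markers moved with these gates. The monocyte and dendritic list (7 genes, 6 with a UMI, Siglech at 0) summed to 29.0 to 285 CPM in lymphoid-gated cells and 16.5 to 104 in granule-gated cells. The mature B cell list (5 genes, Cd79a at 0) summed to 0 to 136 and 11.6 to 112. Other lists went the other way in pooled level: T and NK cell markers were at 98.3 CPM in lymphoid-gated and 175 in granule-gated cells, mast cell and basophil markers at 26.3 and 83.7, and erythroid and platelet markers at 74.1 and 131. Their part in the result was not tested. With the core cells left out, 2 of 6 genes tested were called, Ifi27l2a and Ifi203. Within batch SB341 (9 libraries) Ifi27l2a and Ifi203 were called, and within SB343 (6 libraries) Ifi27l2a and Bst2. The adjusted p was 0.158 for Rtp4 in SB341 and 0.0576 for Ifi203 in SB343.

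**Figure D5:**
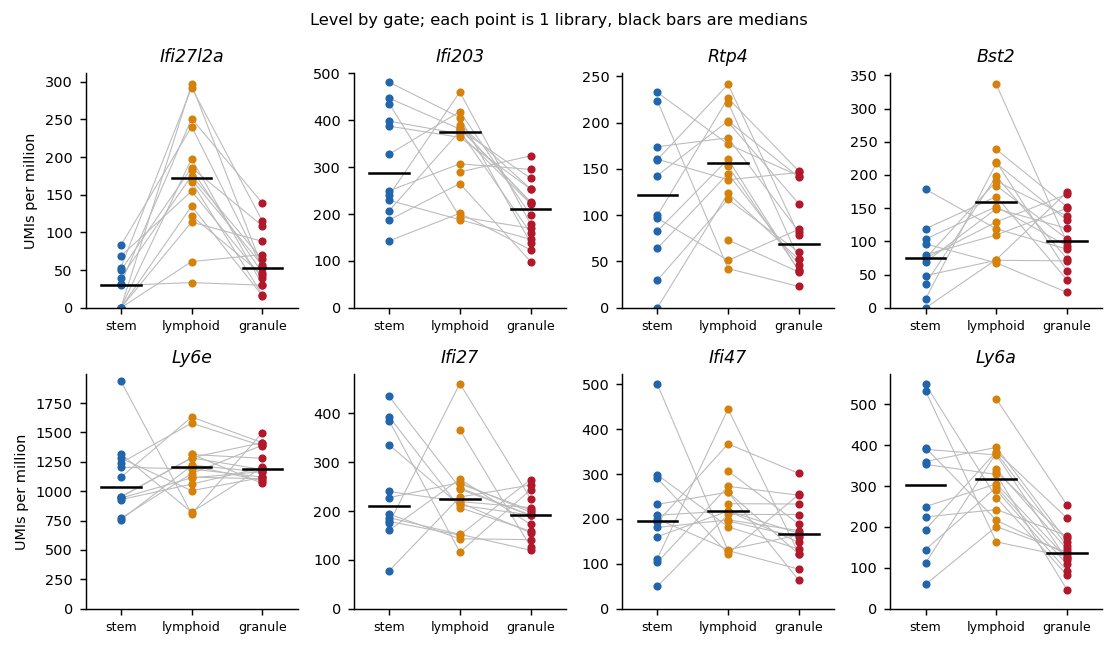
CPM (y axis, from 0) of 7 interferon response genes and of Ly6a in stem-gated, lymphoid-gated and granule-gated cells. Each point is 1 library with at least 10 such cells, grey lines join the same library and black bars are medians. Ifi27l2a is low in stem-gated and granule-gated cells (medians 30.9 and 53.5) and high in lymphoid-gated cells (173), while the Ly6e medians are 1035, 1203 and 1192 in stem-gated, lymphoid-gated and granule-gated cells.

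Stem-gated cells could be compared in 12 libraries with at least 10 such cells, at far lower summed depth. Granule-gated cells had less Ifi203 than stem-gated cells: the levels were 98.8, 174 and 295 against 143, 288 and 481 CPM, lower in 11 of 12 libraries (-0.80 ± 0.20, edgeR adjusted p = 0.0059). This was 1 of 4 interferon response genes tested, where 7.28% of 756 genes were called, 2.51% as higher and 4.76% as lower. Without the library block its adjusted p was 0.0518, and within batch SB343 (3 libraries) it was 0.596. Ifi27 (-0.41 ± 0.22), Ifi47 (-0.30 ± 0.25) and Ly6e (0.096 ± 0.089) were not called. Of 7 pathway genes Ifitm1 (-0.91 ± 0.14) and Ifitm3 (-0.60 ± 0.14) were lower and none was higher.

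Lymphoid-gated against stem-gated cells gave no call among the 3 genes tested, where 5.47% of 567 genes were called, 1.94% as higher and 3.53% as lower. Ifi203 differed by 0.030 ± 0.18, Ly6e by 0.027 ± 0.11 and Ifi27 by -0.20 ± 0.22 on the log2 scale, and none had an unadjusted p under 0.05; DESeq2 called none either. Of 8 pathway genes Ifitm1 (-1.48 ± 0.16, edgeR adjusted p = 1.16e-10) and Ifitm3 (-0.84 ± 0.13, adjusted p = 3.34e-06) were lower. Ifi27l2a was too low in stem-gated cells for the filter. Its levels were 0, 30.9 and 82.8 CPM there and 33.5, 181 and 297 in lymphoid-gated cells of the same libraries, higher in 12 of 12. With 16 UMIs in stem-gated cells it could pass a lower filter only through the lymphoid gate, so no test of it is given. With the lower filter of 30 UMIs, Ly6e differed by 0.33 ± 0.10 (edgeR adjusted p = 0.021), where 4.06% of 7273 genes were called. The median of all genes was 0.25 in that fit, so the Ly6e difference lay close to it. With the same filter Ly6e (0.48 ± 0.10) was higher in granule-gated than in stem-gated cells, against a median of 0.29 over all genes, where 4.69% of 7243 genes were called; Ifi203 was at -0.41 there (edgeR adjusted p = 0.343).

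Megakaryocyte and erythroid-gated cells could be set against stem-gated cells in 3 libraries, all of batch SB343. Of the 39 genes only Ly6e passed the filter (-0.17 ± 0.23, edgeR adjusted p = 0.825), where 1.47% of 341 genes were called, and its unadjusted p was not under 0.05. Ifi203 was at 60.2, 83.7 and 86.7 CPM against 240, 398 and 447, lower in all 3 libraries with no overlap. These levels rest on 2 or 3 UMIs per library in the megakaryocyte and erythroid gate, and the gene could pass a lower filter (under which 2.17% of 831 genes were called) only through the stem gate, so no test is given.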

How the data were processed

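RNA of single LSK cells was measured by MARS-seq, a plate method that sequences mRNA 3′ ends with UMIs, per the labels' protocols. The authors deposited counts of UMIs per gene and well, not normalized, for 16 libraries of 384 wells, and a table of wells with batches. The submitters' processing notes name build mm10 and bcl2fastq 2.15.0.4. No source used here gives an aligner, a counter, an annotation or a strand setting. The members, lists and gates were chosen with earlier results of these data known. Counts were summed per library and gate (at least 10 cells in both classes; at least 3 for core cells) and tested with edgeR 4.0.16 (filterByExpr, TMM, quasi-likelihood, library as block, R 4.3.3), with Benjamini-Hochberg adjustment over all genes tested other than gate markers or, for core cells, the 39 genes. Both classes of a pair come from the same library, which is the source of the pairing. DESeq2 1.42.0, RLE factors, other filters, UMI minimums, gate rules, thinning to 500 UMIs, single batches and leaving out each library were the alternatives. Named were all 39 genes by role, with library values for the 3 steady genes and the 10 with most UMIs, every one of the 39 called in the main fits, and of the pathway genes those called or most abundant; of other called genes only examples are named, the lower ones in core cells after their values were seen. Library pairs differed beyond sampling noise (chi-square per degree of freedom at least 1.43 over 120 pairs). The scripts were tested on simulated data. A gene of the pathway lists is not reported here.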

Additional observations from a re-analysis of the deposited data

How the results depend on the processing

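For granule-gated against lymphoid-gated cells, 4 genes called in the main analysis became 1 of 2 tested with at least 3 markers per gate, 0 of 1 in cells thinned to 500 UMIs, 2 of 6 without core cells, 2 of 7 in batch SB341 and 2 of 6 in SB343; without 1 library it was 3 to 5. With no replicate block it was 3, and Bst2 lost its call. The calls of Ifi27l2a and Rtp4 among these are not read as tests, since both passed the filter mainly through the lymphoid gate. For granule-gated against stem-gated cells, 1 became 0 when thinned, 0 with no replicate block and 0 in SB343, and 2 with no filter or with the 30 UMI filter. For lymphoid-gated against stem-gated cells, 0 became 3 (Bst2, Ifi27l2a and Ly6e) with no filter or with the 30 UMI filter. Ifi27l2a could pass the lower filter only through the lymphoid gate, and Bst2 had 0 to 5 UMIs per library in stem-gated cells. The calls of Ifi27l2a and Bst2 are not read as tests. For megakaryocyte and erythroid-gated against stem-gated cells, 0 became 1 without library 15. It also became 1 with the 30 UMI filter, but that gene, Ifi203, passed only through the stem gate. Its call is not read as a test. Pathway genes called in core cells went from 1 to 4 with at least 2 core genes, 0 at a minimum of 1000 UMIs, 6 with RLE factors, 4 with no filter and 3 (all lower) with the 30 UMI filter, where the median of all genes was -0.53; without 1 library it was 0 to 3. The summed level of 3396 CPM became 4325 with mitochondrial and ribosomal protein genes left out of the total, the median concentration ratio was 0.934 after thinning (0.808 to 0.834 without 1 library), and the share of core cells was 11.7% at 2 core genes, 1.16% at 4 and 0.291% after thinning (3.15% to 3.41% without 1 library). The cause was not tested beyond what each setting removes.

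Changes of sign were seen only in genes not called in the main analysis. For Ly6e they were -0.00789 with overlapping gates, -0.080 thinned, -0.0029 without core cells and -0.16 in SB343 (granule against lymphoid; -0.023 to 0.052 without 1 library), -0.091 in SB341 (lymphoid against stem; -0.028 to 0.14 without 1 library), -0.0064 thinned (granule against stem) and 0.036 without core cells (megakaryocyte and erythroid; -0.45 to 0.037 without 1 library). For Ifi203 in lymphoid against stem they were -0.039 with overlapping gates, -0.0050 with no replicate block and -0.0014 in SB341 (-0.036 to 0.12 without 1 library). Ifi27 was at 0.23 with no filter and 0.11 with the 30 UMI filter (lymphoid against stem) and at 0.065 with no filter (granule against stem), and Ifi47 there at 0.16 and 0.073. At least 3 markers for the stem gates, SB341 for the megakaryocyte gate and core cells chosen after thinning (15 cells) left too few libraries to be run. Depth limited the gate tests to genes of high count.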
